A study of Mus musculus with 7 samples.

Results

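The 33 genes described here encode enzymes of the tricarboxylic acid (TCA) cycle, of the reactions that feed the cycle or draw from it (anaplerosis and cataplerosis), and of the redox shuttles that link it to the cytosol. They were taken by symbol from a fixed list and matched to the Ensembl identifiers of the deposited tables. The rule names no measured value, but the list was chosen with earlier results of these data known. All 33 were among the 22027 listed genes, and all 33 passed the filter on low counts that left 12674 genes for testing. By role, 12 act in the cycle itself, 2 belong to the pyruvate dehydrogenase complex, 4 are cytosolic or NADPH-linked enzymes beside the cycle, 9 are anaplerotic or amino acid enzymes, and 6 serve the malate-aspartate and glycerol phosphate shuttles.

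The 7 libraries were made from left-ventricle RNA of mice with the strain name C57BL/6J, all aged 12 months and all telomerase-deficient. For the G3 group (n = 4) the genotype label names no further change. The group named G3 PGC1aOE (n = 3) is described as the same telomerase-deficient mouse with PGC1alpha overexpressed, a transcriptional coactivator encoded by Ppargc1a that acts with nuclear receptors on genes of oxidative metabolism. The labels do not spell out G3, and a second label, a sample code, reads G3 in 4 of the 7 and G2 in the remaining 3, namely G3 PGC1aOE 1, G3 1 and G3 3. Before that text, the codes of the 3 libraries labelled G3 PGC1aOE carry the letters PC, and no other code does. Within G3 the letters are mixed: the code of G3 4 carries P alone, that of G3 3 neither letter, and the remaining codes C alone. What these letters stand for is not given. Groups here follow the genotype label. The sources used here do not give the promoter and cell type that drive the overexpression, the sex of the mice, or whether each library came from a separate animal, so p-values measure only the spread between these libraries. No telomerase-proficient library entered any comparison.

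In the cycle, citrate synthase joins acetyl-CoA to oxaloacetate, and successive dehydrogenases hand electrons to NAD+ as the carbon skeleton is oxidised back to oxaloacetate. The heart relies on this flux to feed its respiratory chain. Anaplerotic enzymes replace intermediates that leave the cycle, and the malate-aspartate shuttle, the main route in heart, uses paired cytosolic and mitochondrial dehydrogenases and transaminases to move reducing equivalents inward.

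Total counts ran from 10106705 to 16056740 per library. The labelled target was not higher in its group: Ppargc1a measured 94.7, 56.8, 118 and 86.7 CPM (read counts relative to the TMM-scaled library size) in G3 1 to 4, and 103, 43.9 and 58.1 CPM in the libraries labelled G3 PGC1aOE 1 to 3. Its log2 fold change was −0.38 (SE 0.34), so every direction below rests on the labels. All 15 cardiomyocyte markers were detected, 7 lower and 8 higher (median log2 fold change 0.01), from −0.95 for Ryr2 to 0.73 for Myl2. Among markers of other cells, those more often higher in the G3 PGC1aOE group were 11 of 12 for fibroblasts (median 0.85), 10 of 12 for endothelium (0.48), 10 of 11 for macrophages (0.29), 6 of 8 for smooth muscle and pericytes (0.40), 5 of 5 for Schwann cells (1.21), 5 of 5 for atrial muscle (1.16) and 6 of 9 for adipocytes (1.28). The atrial values were uneven within groups: Myl7 measured 113, 141, 0.718 and 0.451 CPM in G3 1 to 4, and 0, 7.86 and 420 CPM in G3 PGC1aOE 1 to 3 (SE of the log2 fold change 2.38). Among adipocyte markers the 3 lower ones, Lpl, Pnpla2 and Plin4, were the most abundant, and the 6 higher ones did not exceed 23.3 CPM in any library. Of the erythroid markers 1 of 5 was higher (−0.12) and of the skeletal muscle markers 1 of 2, while Ucp1 was listed at 0 in every library. None of these markers passed the edgeR test. The 13 mitochondrially encoded genes took 24.7% to 34.5% of counts in G3 and 27.7% to 42.4% in the other group. G3 PGC1aOE 2 and G3 PGC1aOE 3 stood apart by gene length: genes under 1 kb lay at a median 0.47 and 0.30 above their mean over libraries on the log2 scale there, against −0.28 to 0.03 in the other 5 libraries. The part of cell makeup in the values below was not tested, and in bulk tissue fewer cells of a type and less RNA per cell cannot be told apart. For gene length, some values below are also given with each library's length trend removed, and its part was not tested further.

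At the level of the whole list, most of the 33 enzymes were a little lower in the group labelled G3 PGC1aOE, without any passing the test. By edgeR's quasi-likelihood test, 0 of 33 members and 0 of 12674 genes (0.0%) passed an adjusted p of 0.05, with 548 genes (4.32%) at an unadjusted p under 0.05. DESeq2 called 3 genes and limma voom 0, none of them members. Of the members, 23 had a negative log2 fold change and 10 a positive one, where 49.1% of all tested genes were negative. The member median was −0.22, with a range from −1.04 to 0.59, and the median over all tested genes was 0.01. With each library's length trend removed, a setting chosen after seeing the data, 27 of 33 were negative and the member median was −0.21. On log2(FPKM + 1), with no TMM scaling, 31 of 33 were negative; there the median of all genes itself moved to −0.08 and that of the members to −0.31. An unadjusted p under 0.05 was reached by 2 members in the lower direction (Nnt and Pcx; 1.27% of all tested genes) and by 0 in the higher direction (3.05%). On the TMM-scaled CPM, 4 members (Idh2, Nnt, Pcx and Got1) had groups that did not overlap, all 4 in the lower direction. Such separation was found for 4.58% of all tested genes, 2.39% in the lower and 2.19% in the higher direction.

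The mean log2 CPM over the 33 members was 7.39, 7.41, 7.57 and 7.52 across the 4 G3 libraries in order, and 7.31, 7.12 and 7.37 across the 3 labelled G3 PGC1aOE. The groups did not overlap, though G3 PGC1aOE 3 nearly reached G3 1. A single library carried many of the extremes: G3 PGC1aOE 2 was the lowest of the 7 for 16 members and the highest for 6, whereas G3 3 was the highest for 14. Without G3 PGC1aOE 2 the member median was −0.12, and without G3 3 it was also −0.12. Leaving out G3 PGC1aOE 2 changed the sign of a fold change or moved it by over 1.5 times for 21 of the 33, and leaving out each of the other 6 libraries did so for 8 to 15. The sample codes also carry numbers, and nothing says what they stand for. Among libraries with a number below 80 (G3 1, 2 and 3 with G3 PGC1aOE 1) the group difference of the member mean was −0.15, and among those at 80 or above (G3 4 with G3 PGC1aOE 2 and 3) it was −0.28. Each difference within code numbers, here and below, thus rests on a single library in 1 of the groups and is a description only.

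**Figure D1:**
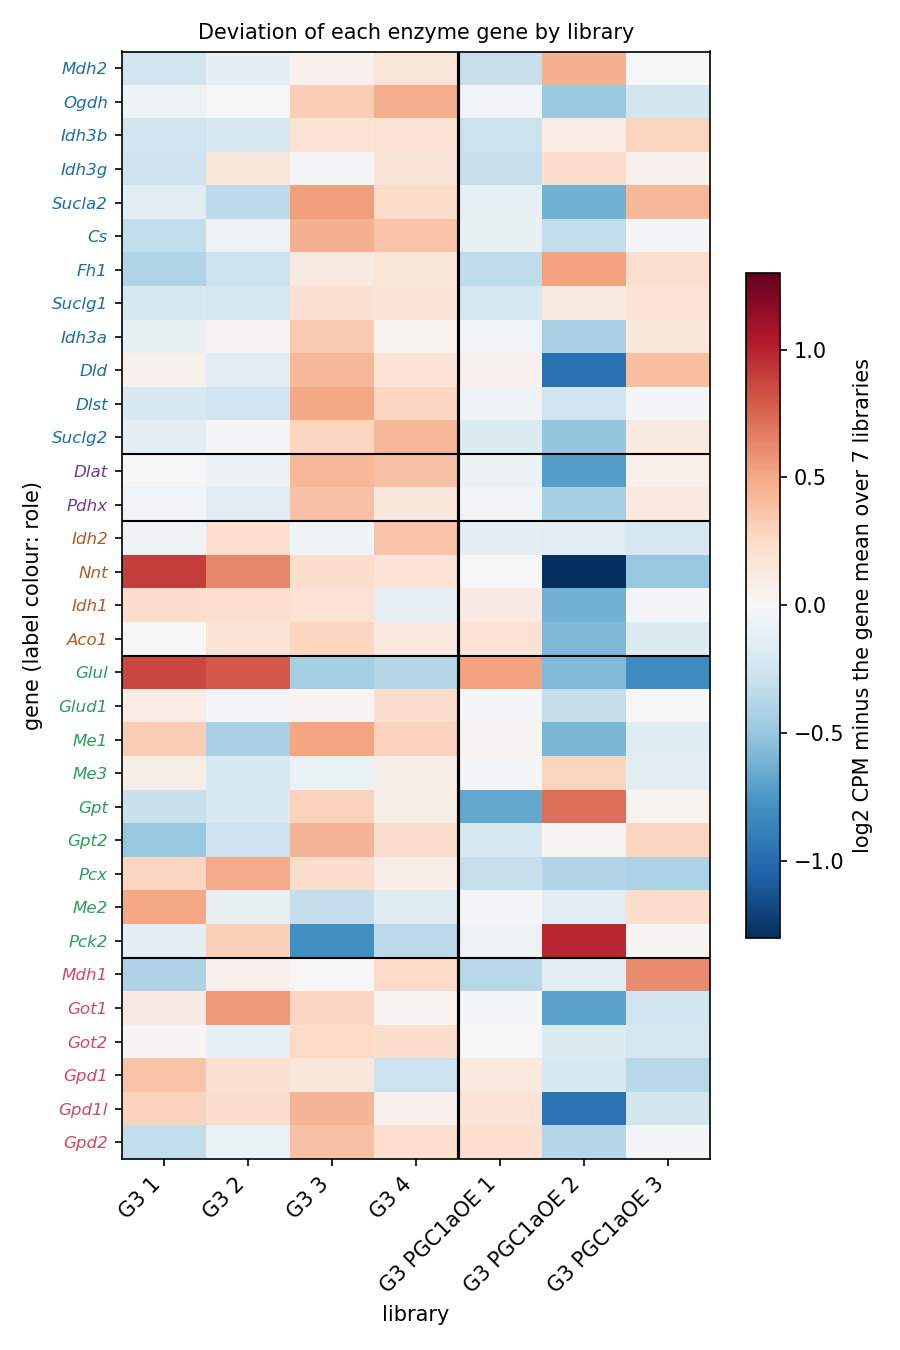
Deviation of log2 CPM from the gene's mean over the 7 libraries for each of the 33 enzymes, arranged by role, with libraries as columns. The column of G3 PGC1aOE 2 holds the lowest value for 16 enzymes and the highest for 6, and the Glul row is high in G3 1, G3 2 and G3 PGC1aOE 1.

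Levels between genes can be compared per length, on the deposited FPKM (reads relative to gene length and library size). The list spanned a wide range of abundance. Mdh1, the cytosolic malate dehydrogenase of the malate-aspartate shuttle, had the highest mean over the 7 libraries at 1906 FPKM, followed by Idh2, the mitochondrial NADP-dependent isocitrate dehydrogenase, at 1619 FPKM and Mdh2, the mitochondrial malate dehydrogenase of the cycle, at 1064 FPKM. Pck2, mitochondrial phosphoenolpyruvate carboxykinase, at 3.31 FPKM, Me2, a mitochondrial malic enzyme, at 3.41 FPKM and Gpd2, the mitochondrial glycerol phosphate dehydrogenase, at 3.53 FPKM were the least abundant. These levels depend on the gene lengths the authors used: the longest coding transcript of a later annotation was a median 1.56 times the implied length, from 0.999 times for Dlst to 3.43 times for Dlat. It was 2.17 times for Mdh1 and 1.55 times for Idh2, so which of these ranks first depends on the lengths. Differences between libraries of one gene do not depend on that length.

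Summed over the members of a role, the 12 cycle enzymes took 35.7% to 47.5% of the list's FPKM per library and the 6 shuttle enzymes 27.1% to 35.9%. The 4 cytosolic or NADPH-linked enzymes took 14.2% to 19.5%, mostly Idh2, and the 2 pyruvate dehydrogenase components 1.90% to 3.38%. The share of the anaplerotic and amino acid enzymes, mostly Glul, had the highest ratio of largest to smallest value, from 5.08% to 13.8%. Its 3 highest values were in G3 1, G3 PGC1aOE 1 and G3 2, the libraries with the highest Glul. Every one of these shares overlapped between the groups.

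**Figure D2:**
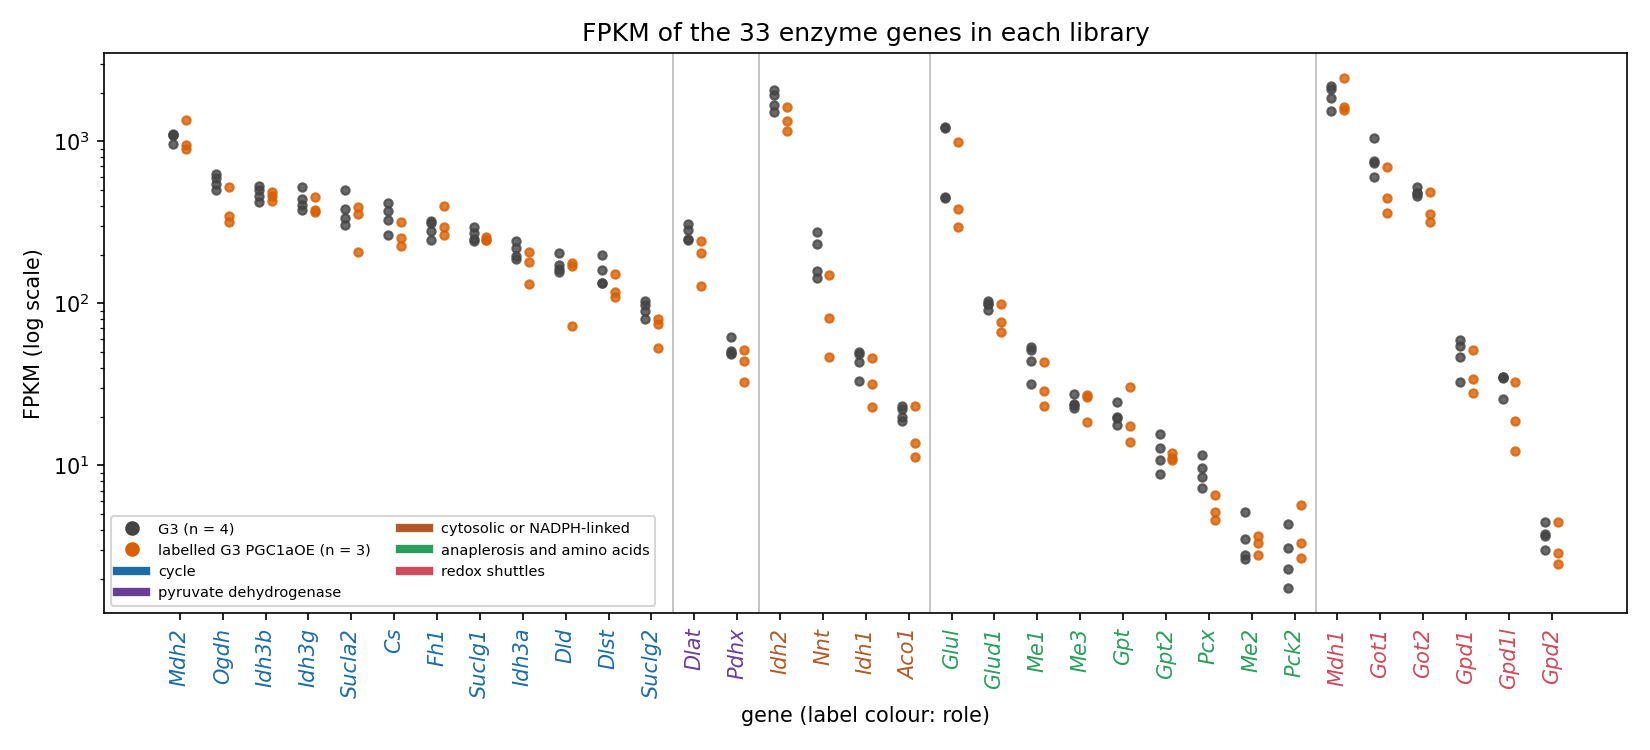
Deposited FPKM on a log axis for the 33 enzymes in each of the 7 libraries, arranged by role and coloured by group. Mdh1, Idh2 and Mdh2 lie at the top with means of 1906, 1619 and 1064 FPKM, and Pck2, Me2 and Gpd2 near 3 FPKM.

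By edgeR, the 12 enzymes of the cycle itself lay on both sides of 0. Of them, 8 were lower and 4 higher in the libraries labelled G3 PGC1aOE, the median log2 fold change was −0.16, and none had groups that did not overlap. That median moved to −0.058 when G3 3 was left out, to −0.074 without G3 PGC1aOE 2, to −0.29 without G3 PGC1aOE 3 and to −0.0078 with voom. The count of lower enzymes also depended on the setting. It was 11 of 12 on log2(FPKM + 1) (median −0.29), with a code number covariate (−0.17) and with each library's length trend removed (−0.17). Voom and upper quartile scaling gave 7 of 12. Mdh2, which regenerates oxaloacetate, was the most abundant. It measured 829, 916, 1030 and 1109 CPM in G3 1 to 4, and 806, 1370 and 992 CPM in G3 PGC1aOE 1 to 3. The 3 latter libraries held both the lowest and the highest value, and the log2 fold change was 0.12 (SE 0.28, 95% interval −0.50 to 0.74), which turned to −0.02 on log2 FPKM.

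Cs, citrate synthase, the entry step often used as a marker of mitochondrial content, stood at −0.29 (SE 0.28). The NAD-dependent isocitrate dehydrogenase is built from catalytic Idh3a and the companion subunits Idh3b and Idh3g, which stood at −0.18, 0.06 and −0.00, the last 2 so near 0 that their sign depended on the scaling. The 2-oxoglutarate dehydrogenase complex contributed the lowest cycle value: its E1 component Ogdh stood at −0.44 (SE 0.27), while its E2 component Dlst stood at −0.22 and Dld, the E3 component it shares with pyruvate dehydrogenase, at −0.22. For Ogdh the split by code number was uneven, with a difference of −0.12 below 80 and −0.83 at 80 or above. Dld rested on a single library: G3 PGC1aOE 2 was lowest, and without it the log2 fold change was 0.09.

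Succinyl-CoA synthetase pairs the common subunit Suclg1 (0.04, or −0.08 on log2 FPKM) with either the ADP-forming Sucla2 (−0.15) or the GDP-forming Suclg2 (−0.32, SE 0.25). On the deposited FPKM, Suclg2 was among the 3 members whose groups did not overlap, together with Dlat and Pcx, beside 3.78% of all tested genes, whereas on TMM-scaled CPM its groups overlapped. Fh1, fumarate hydratase, stood at 0.26 (SE 0.28), and at 0.045 without G3 PGC1aOE 2. Within code numbers Fh1 differed by −0.15 below 80 and by 0.21 at 80 or above.

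**Figure D3:**
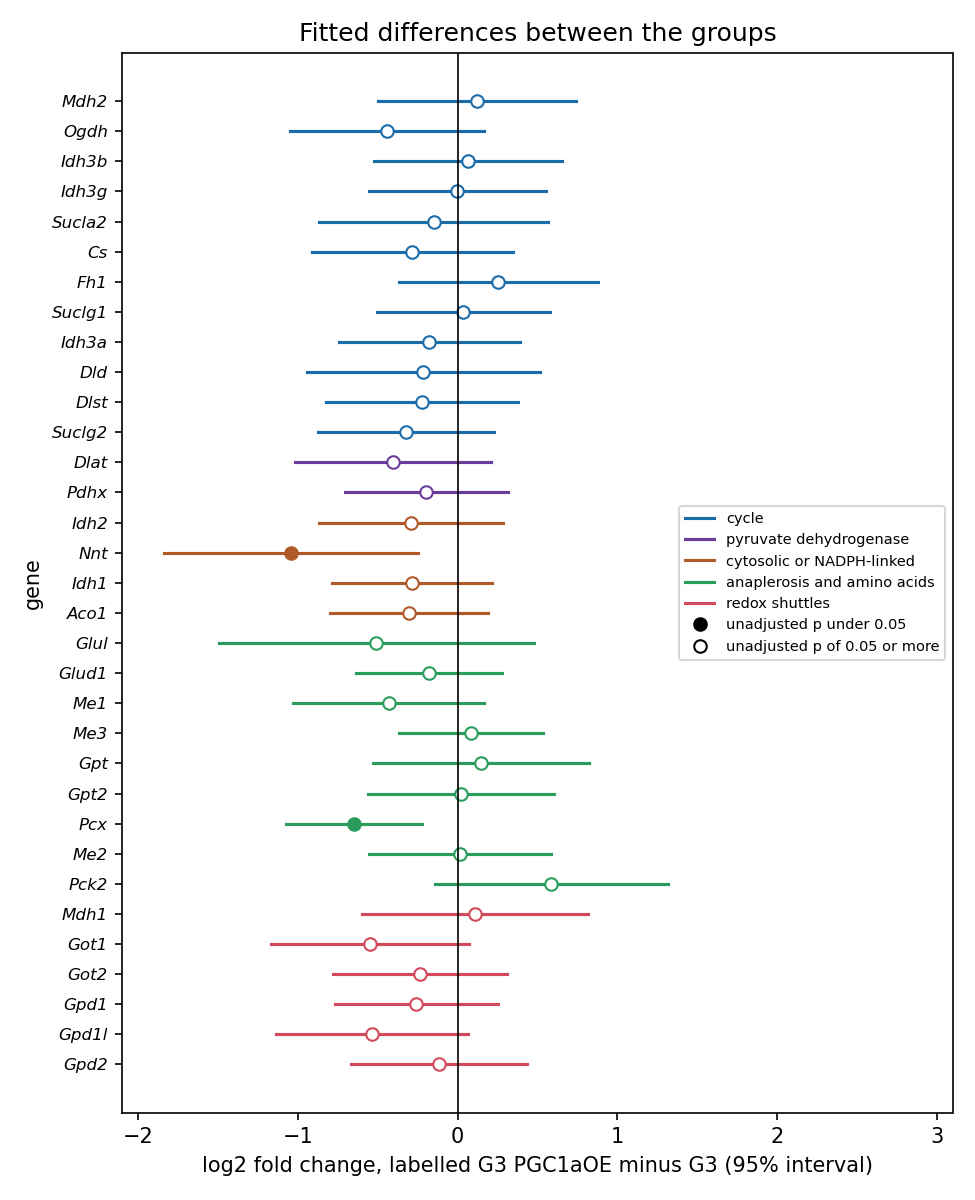
Log2 fold change (libraries labelled G3 PGC1aOE over G3) of the 33 enzymes by role, with points at the edgeR estimate and bars for the 95% interval. Of the 33 intervals, those of Nnt (−1.84 to −0.25) and Pcx (−1.07 to −0.22) exclude 0, and neither passes adjustment.

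The 2 members from the pyruvate dehydrogenase complex, which turns pyruvate into acetyl-CoA, both lay on the lower side without passing the test. Dlat, its E2 acetyltransferase, measured 269, 256, 364 and 352 CPM in G3 1 to 4, and 255, 164 and 284 CPM in G3 PGC1aOE 1 to 3. The groups overlapped, with G3 PGC1aOE 2 lowest and G3 PGC1aOE 3 above G3 1, and the log2 fold change was −0.41 (SE 0.28). Pdhx, which anchors the E3 component to the complex, stood at −0.20 (SE 0.23). Without G3 PGC1aOE 2 the values were −0.20 for Dlat and −0.054 for Pdhx.

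Among the 4 cytosolic or NADPH-linked enzymes, all 4 were lower, none passed, and the median was −0.30. Nnt, the transhydrogenase of the inner membrane that makes mitochondrial NADPH at the expense of NADH and the proton gradient, had the widest difference of the list. It measured 708, 582, 444 and 428 CPM in G3 1 to 4, and 376, 141 and 269 CPM in G3 PGC1aOE 1 to 3. Every G3 value was above every value of the other group, although G3 4 and G3 PGC1aOE 1 were close.

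The group means of Nnt were 540 ± 132 CPM (SD, n = 4) and 262 ± 118 CPM (SD, n = 3), which gave a log2 fold change of −1.04 (SE 0.36, 95% interval −1.84 to −0.25). Nnt was at rank 125 of 12674 by p, and its edgeR adjusted p was 0.847, with a range of 0.116 to 1 over the alternatives. On the deposited FPKM the groups overlapped: 274, 234, 157 and 144 FPKM in G3 against 149, 46.4 and 81.3 FPKM. Within code numbers Nnt differed by −0.59 below 80 and by −1.13 at 80 or above. C57BL/6J mice are known to carry a deletion of several Nnt exons. The gene-level counts give 1934 to 7878 reads per library and do not say which allele or exons the reads came from.

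Idh2 measured 1736, 2078, 1720 and 2309 CPM in G3 1 to 4, and 1641, 1617 and 1543 CPM in G3 PGC1aOE 1 to 3. All 3 latter values were below the lowest G3 value, and lay within a much narrower band. The group means were 1961 ± 285 CPM (SD, n = 4) and 1600 ± 51.4 CPM (SD, n = 3), with a log2 fold change of −0.29 (SE 0.26). Idh1, the cytosolic counterpart, stood at −0.28 (SE 0.23), and Aco1, the cytosolic aconitase that doubles as an iron regulatory protein, at −0.30 (SE 0.22). Without G3 PGC1aOE 2 they stood at −0.093 and −0.13, and without G3 PGC1aOE 1 at −0.43 and −0.52.

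By edgeR, 4 of the 9 anaplerotic and amino acid enzymes were lower and 5 higher, with a median of 0.01 that turned negative in most alternatives. On log2(FPKM + 1), 8 of 9 were lower (median −0.064). Pcx, pyruvate carboxylase, which makes oxaloacetate from pyruvate, had the smallest p of all 33 members. It measured 36.7, 42.5, 35.3 and 31.9 CPM in G3 1 to 4, and 24.5, 23.1 and 22.5 CPM in G3 PGC1aOE 1 to 3. Every G3 library was above every library of the other group, and Pcx alone kept that separation on both CPM and FPKM.

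The group means of Pcx were 36.6 ± 4.42 CPM (SD, n = 4) and 23.4 ± 0.992 CPM (SD, n = 3), which gave a log2 fold change of −0.65 (SE 0.19, 95% interval −1.07 to −0.22). Pcx was at rank 50 of 12674 by p, and its edgeR adjusted p was 0.847 (0.152 to 1 over the alternatives). Leaving out each library in turn gave −0.71 to −0.57 for Pcx. It differed by −0.63 below code number 80 and by −0.48 at 80 or above. Its implied length of 4137 bp places Pcx among the genes over 4 kb, whose median log2 fold change was −0.19, and with each library's length trend removed its value was −0.50. Fat cells are known to express Pcx strongly. Of the 9 tested adipocyte markers 6 were higher in the group with the lower Pcx values, and the summed level of the list ran from 1494 to 4912 FPKM in G3 and from 923 to 3430 FPKM in the other group, mostly from Lpl, which heart muscle also expresses. The part of fat in the Pcx values was not tested.

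Glul, glutamine synthetase, was the most abundant of the anaplerotic and amino acid enzymes and divided the libraries without regard to group. It measured 1095, 1040, 443 and 462 CPM in G3 1 to 4, and 861, 401 and 340 CPM in G3 PGC1aOE 1 to 3. G3 1, G3 2 and G3 PGC1aOE 1 were high and the other 4 low, with no value between 462 and 861 CPM. The log2 fold change was −0.51 (SE 0.45, 95% interval −1.50 to 0.48), and leaving out each library in turn gave −1.04 to −0.27, the lower end without G3 PGC1aOE 1.

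The same 3 libraries had the smallest share of mitochondrially encoded counts, at 24.7%, 26.0% and 27.7%, against 31.4% to 42.4% in the others. They also had the highest summed level of 6 atrial markers, at 3365, 3752 and 5050 FPKM, against 85.9 to 2482 FPKM, and Nppa, an atrial natriuretic peptide gene that the stressed ventricle also makes, held most of that sum. For the other atrial markers the pattern differed: Myl7, the atrial light chain, had no read in G3 PGC1aOE 1 and measured 420 CPM in G3 PGC1aOE 3, where Glul was low. The part of these features in the Glul levels was not tested. Glud1, glutamate dehydrogenase, which releases 2-oxoglutarate from glutamate, varied little beside Glul, from 85.4 to 124 CPM, and stood at −0.18 (SE 0.21).

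Of the malic enzymes, which interconvert malate and pyruvate, cytosolic Me1 stood at −0.43 (SE 0.27) and the mitochondrial forms Me2 and Me3 at 0.01 and 0.08, both negative on log2 FPKM. Pck2, which makes phosphoenolpyruvate from oxaloacetate, had the highest fold of the list at 0.59 (SE 0.33), with G3 PGC1aOE 2 as its highest library at 21.0 CPM, and its value without that library was 0.17. The alanine transaminases Gpt and Gpt2, which link alanine and pyruvate to glutamate and 2-oxoglutarate, stood at 0.15 (SE 0.31) and 0.02 (SE 0.26), both negative on log2 FPKM. For Gpt the direction differed within code numbers, with −0.60 below 80 and 0.30 at 80 or above.

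Of the 6 shuttle enzymes, 5 were lower and 1 higher, with a median of −0.25, and none passed. Mdh1 measured 1393, 1915, 1835 and 2181 CPM in G3 1 to 4, and 1430, 1658 and 2826 CPM in G3 PGC1aOE 1 to 3. The groups overlapped, since the highest value belonged to G3 PGC1aOE 3 while G3 PGC1aOE 1 lay near the lowest G3 value. The log2 fold change was 0.11 (SE 0.32), and −0.06 on log2 FPKM.

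Got1, the cytosolic aspartate transaminase that works beside Mdh1 in the malate-aspartate shuttle, measured 816, 1115, 921 and 771 CPM in G3 1 to 4, and 753, 469 and 634 CPM in G3 PGC1aOE 1 to 3. The groups did not overlap, by the narrow margin between G3 4 and G3 PGC1aOE 1. The means were 906 ± 153 CPM (SD, n = 4) and 619 ± 143 CPM (SD, n = 3), with a log2 fold change of −0.55 (SE 0.28, 95% interval −1.17 to 0.07). Got2, the mitochondrial partner, stood at −0.24 (SE 0.25). Reads of Got2 could be shared with the processed copy Got2-ps1, since the sources used here do not say how reads that match several genes were handled.

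In the glycerol phosphate shuttle, cytosolic Gpd1 stood at −0.26 (SE 0.23), its relative Gpd1l at −0.54 (SE 0.27) and the mitochondrial Gpd2 at −0.12 (SE 0.25). Gpd1l was lowest in G3 PGC1aOE 2, at 29.8 CPM, and without that library its log2 fold change was −0.28.

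**Figure D4:**
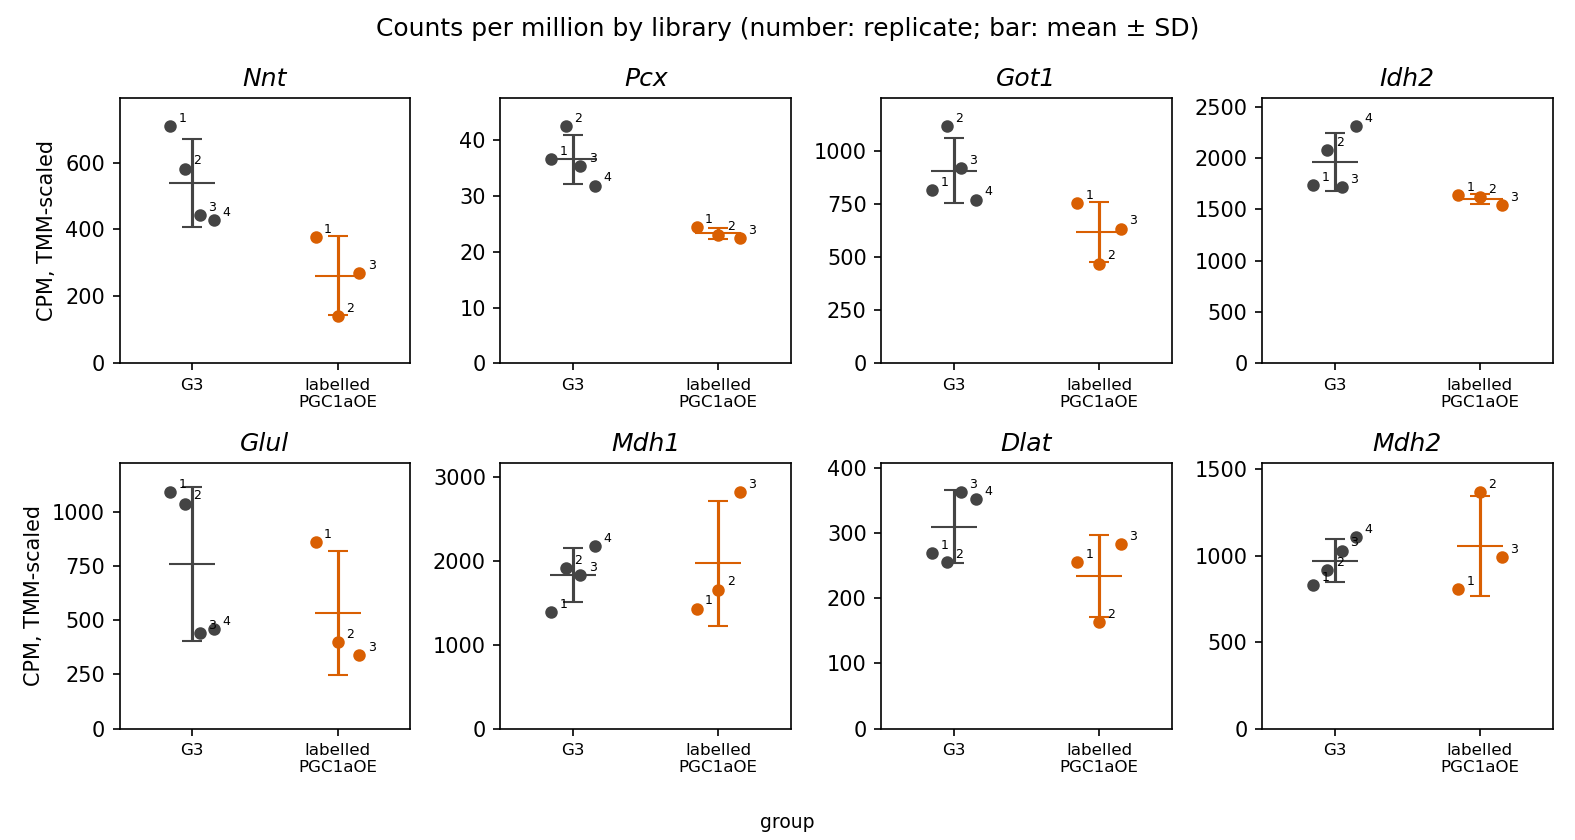
TMM-scaled CPM of the members with a value printed for every library, 1 panel per gene, with points for libraries, horizontal lines for group means and bars for 1 SD (G3, n = 4; labelled G3 PGC1aOE, n = 3). Nnt, Pcx, Got1 and Idh2 have groups that do not overlap, and Glul has high values in 3 libraries drawn from both groups.

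Ratios of related enzymes within a library do not depend on library scaling, and 10 were compared on the log2 FPKM scale with an exact 2-sided permutation test, whose smallest possible p with 4 and 3 libraries is 0.0286. With 10 ratios adjusted together, a single ratio could not have passed 0.05, so the adjusted p, from 0.786 to 1, says little. Every ratio overlapped between the groups. The size of each ratio, and whether it lies above 1, depends on the gene lengths used, while its differences between libraries do not. Mitochondrial over cytosolic malate dehydrogenase (Mdh2 over Mdh1) ranged from 0.366 in G3 PGC1aOE 3 to 0.861 in G3 PGC1aOE 2, so that the labelled group spanned both extremes and the G3 libraries lay between. The corresponding transaminase ratio (Got2 over Got1) ran from 0.438 to 0.993, with a group difference of 0.33 on the log2 scale (exact permutation p = 0.314). Idh2 exceeded Idh1 by 34.5 to 58.0 times, and the group difference was 0.03 (exact permutation p = 0.714).

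Between alternative subunits, the ADP-forming Sucla2 exceeded the GDP-forming Suclg2 by 3.40 to 5.24 times in the 7 libraries, with a difference of 0.16 (exact permutation p = 0.4). Mitochondrial over cytosolic malic enzyme (Me3 over Me1) had the widest group difference, 0.49 on the log2 scale, with an exact permutation p of 0.229. It was above 1 in G3 PGC1aOE 2 only, at 1.17, against 0.418 to 0.739 in the other 6. Glutamine synthetase over glutamate dehydrogenase (Glul over Glud1) ranged from 3.89 to 12.1, with 11.8, 12.1 and 9.94 in the 3 libraries of high Glul. Gpd1 exceeded Gpd1l by 1.28 to 2.74 times, and Gpd2 stood at 0.052 to 0.118 of Gpd1.

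**Figure D5:**
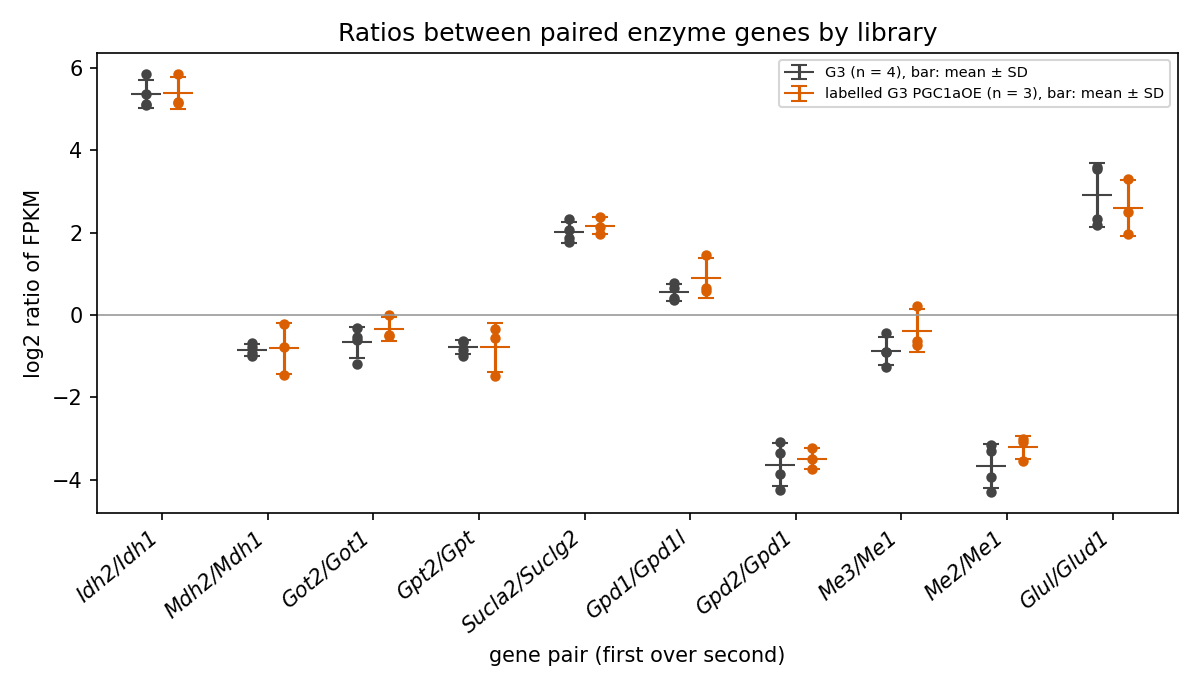
Log2 ratio of FPKM for 10 enzyme pairs in each of the 7 libraries, coloured by group, with lines at the group means. Every pair overlaps between the groups, and the Glul over Glud1 ratio runs from 3.89 to 12.1 on the linear scale.

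Because Ppargc1a varied between libraries irrespective of the label, each member's log2 CPM was also set against that of Ppargc1a over the 7 libraries. Of the 33 members, 23 had a positive Pearson r, with a median of 0.51, beside 50.4% positive and a median of 0.01 over all tested genes. An exact permutation p under 0.05 was reached by 4 members with positive r (Aco1, Me1, Got2 and Gpd1l; 12.6% of all tested genes) and by 1 with negative r (Pck2; 11.9%). None of the 33 passed adjustment over all genes. The highest was Me1, with r = 0.93 and Spearman rho = 0.89 (exact permutation p = 0.0048 and 0.0123, adjusted 0.0822 and 0.166). The lowest was Pck2, with r = −0.89 and rho = −0.86 (exact permutation p = 0.0032 and 0.0238, adjusted 0.0721 and 0.192).

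The relation rested in part on the libraries farthest from the Ppargc1a median, G3 PGC1aOE 2 and G3 2. Without them the median r of the members was 0.21, and r was 0.79 for Me1 and −0.67 for Pck2, while Aco1 and Gpd1l stood at 0.92 and 0.95 over the 5 that remained. Those 5 are below the 6 taken here as the least for a correlation, so their r serve only as a check on the farthest libraries. Within code numbers there are 4 and 3 libraries, and no r is given. On log2(FPKM + 0.1), 1 member, Pdhx, passed adjustment for r (0.88, exact permutation test, adjusted p = 0.0419), as did 305 of all tested genes (2.41%). Its rank correlation, rho = 1, did not (exact permutation test, adjusted p = 0.0592). On that scale the median r was 0.67 for the members and 0.30 for all tested genes. The libraries differed in sequencing depth and length composition as well as in Ppargc1a, and the part of depth and length in these correlations was not tested.

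Further genes of the same pathways, taken from 4 lists chosen by pathway, were also more often lower than higher in 3 of the 4. Of 16 other genes of the cycle and of pyruvate entry, 12 were lower and 4 higher (median −0.32), where 49.1% of all tested genes were negative. An unadjusted edgeR p under 0.05 was reached by 2 of the lower ones, beside 1.27% of all tested genes in that direction. These 2 act on pyruvate dehydrogenase in opposite ways: Pdk4, the kinase that switches the complex off, stood at −1.09 (SE 0.39), and Pdp2, a phosphatase that switches it on, at −1.07 (SE 0.36). Of 7 tested mitochondrial carriers, 5 were lower and 2 higher (median −0.22). The 2 named by p were Slc25a12, the aspartate-glutamate carrier of the malate-aspartate shuttle, at −0.46, and Slc25a1, the citrate carrier, at 0.33.

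Of 16 tested further anaplerotic and ketone or acetate enzymes, 13 were lower and 3 higher (median −0.25). Among them 1 lower and 2 higher were at an unadjusted edgeR p under 0.05, beside 1.27% and 3.05% of all tested genes. Acss1, mitochondrial acetyl-CoA synthetase, stood at −0.93 (SE 0.35). Pck1, the cytosolic counterpart of Pck2, was near the detection limit, at 0.00 to 0.81 CPM in G3 and 0.78 to 2.72 CPM in the other group. Of 8 genes for lipoylation, the cofactor attachment that Dlat and Dlst need, 4 were lower and 4 higher (median −0.05), with Isca2, an iron-sulfur cluster assembly factor, at 0.26 and Lias, lipoic acid synthase, at −0.17. None of these neighbours passed the edgeR test.

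PGC1alpha has no DNA-binding domain of its own and is known to work through factors such as the oestrogen-related receptors, so the RefSeq promoter table (GRCm38.p6, 250 bases before each start site) was searched on both strands for their motif. It matched 28 of the 33 members. The full element TCAAGGTCA was in 0 of the 28, and in 0.422% of all genes in the table. The shorter core AAGGTCA, which the full element contains, was in 1 of the 28 (3.57%), Got1, beside 4.70% of all genes. The CCAAT box (CCAAT, or ATTGG on the other strand) was in 15 of the 28 (53.6%), beside 37.5%, and the members' promoters were richer in G and C, with a median of 60.8% against 52.4%. No binding was measured in these samples, and a match is a description of the letters alone.

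The Got1 stretch is shown because it holds the only receptor core among the members, starting 245 bases before the start site (chr19:43524819-43524855, minus strand, core in capitals).
Got1 upstream: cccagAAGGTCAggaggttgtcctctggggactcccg
The last 60 bases before the start site are shown for the members with separated groups that the table held and for Glul, with CCAAT boxes of either strand in capitals. They are chr19:43524606-43524665 (minus) for Got1, chr7:80115351-80115410 (minus) for Idh2, chr1:153899869-153899928 (plus) for Glul, and chr19:4510412-4510471 and chr19:4594259-4594318 (plus) for the 2 start sites of Pcx.
Got1 proximal: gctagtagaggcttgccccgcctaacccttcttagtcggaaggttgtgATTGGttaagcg
Idh2 proximal: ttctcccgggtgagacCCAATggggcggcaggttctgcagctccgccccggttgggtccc
Glul proximal: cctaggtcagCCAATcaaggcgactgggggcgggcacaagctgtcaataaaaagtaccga
Pcx, upstream start: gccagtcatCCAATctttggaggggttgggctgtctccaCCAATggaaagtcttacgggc
Pcx, downstream start: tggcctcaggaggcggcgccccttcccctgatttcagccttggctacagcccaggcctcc
The 2 Pcx starts differ in that the upstream one holds 2 CCAAT boxes in its last 60 bases and the downstream one none. Gene-level counts do not say which start the Pcx reads came from.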

How the data were processed

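Left-ventricle RNA of mice was sequenced from 7 libraries made with a TruSeq RNA kit, per the labels' protocols, and samples were grouped by genotype label. CASAVA and Bowtie 0.12.2 were used with mm9, per the submitters' processing notes; the sources used here do not give the counting program, its annotation or its use of strand. The authors deposited raw read counts per Ensembl gene, and FPKM, which equal the deposited counts over the column total and 1 length per gene.

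Counts were TMM-scaled and filtered with filterByExpr in edgeR 4.0.16 (R 4.3.3), which kept 12674 of 22027 genes. The test was the robust quasi-likelihood F-test, 2-sided, with no covariate beside group and p adjusted by Benjamini-Hochberg over all tested genes (threshold 0.05). Each log2 fold change is G3 PGC1aOE as labelled over G3, log2 CPM used a prior count of 2, and ratios a pseudocount of 0.1 FPKM. Total counts per library (10106705 to 16056740) set the counting precision, and the biological coefficient of variation was 31.2%. Named with a value in every library were members at unadjusted p under 0.05, members with separated groups in CPM, the member of highest FPKM in each role, and Nnt, plus at most 2 neighbours per list by p; other library values and Myl7 were chosen after their values were seen. The members and lists were chosen with earlier results of these data known.

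Alternatives were DESeq2 1.42.0, voom in limma 3.58.1, limma on log2 FPKM, scaling by RLE or upper quartile, other filters, covariates for the number or the G2 or G3 text in the sample code, fits without mitochondrially encoded genes or with a replicate block, leaving out each library, and, chosen after seeing the data, removal of each library's length trend. Scripts were tested on simulated data. Promoters came from RefSeq (GRCm38.p6), and no mm9 coordinates were used.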

Additional observations from a re-analysis of the deposited data

Results flagged for a closer look

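Idh1, the cytosolic NADP-dependent isocitrate dehydrogenase, had 1 library set apart within G3. It measured 38.6 CPM in G3 4 against 47.5 to 48.7 CPM in the other 3, so that the gap to the nearest library was 0.885 of the group's range. Chance flags about 1 in 20 such groups, and 49 values were examined.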

How the results depend on the processing

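Across the alternatives 0 members were called, and the median over the members stayed negative, from −0.27 to −0.12 with each library left out in turn. Over all genes, DESeq2 called 3 and the replicate block 4, against 0 by edgeR. Same-numbered libraries did not clearly pair: their correlations of deviations were 0.456, 0.123 and −0.0863, against −0.323 to 0.164 between libraries of different number. The block therefore shows only how a shared number moves the fit, and it called 0 members. Of 928 recomputed values, 845 kept their direction and side of the threshold or moved by less than the spread, 70 changed sign and 13 moved further; the cause was not tested.

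The median of the anaplerotic and amino acid enzymes was −0.064 on log2(FPKM + 1), −0.073 on log2(FPKM + 0.1) and −0.15 with a code number covariate. It ran from −0.12 to 0.035 with each library left out. On log2(FPKM + 1) and log2(FPKM + 0.1), in that order, the changed signs were −0.056 and −0.056 for Idh3b, −0.076 and −0.077 for Suclg1, −0.021 and −0.021 for Mdh2, −0.064 and −0.073 for Me2, −0.038 and −0.040 for Me3, −0.053 and −0.058 for Gpt, −0.059 and −0.061 for Gpt2, and −0.056 and −0.056 for Mdh1. With a code number covariate they were −0.10 for Idh3b, −0.092 for Suclg1, −0.062 for Mdh2, −0.16 for Gpt, −0.12 for Gpt2 and −0.12 for Mdh1, and with the code text −0.0066 for Gpt2. With the length trend removed they were −0.044 for Idh3b, −0.094 for Suclg1, −0.082 for Mdh2 and −0.064 for Mdh1. Idh3g was 0.041 with upper quartile scaling, 0.016 with at least 10 counts in every library, 0.014 without mitochondrially encoded genes and 0.050 with the replicate block, where Me2 was −0.0088. Without a filter Me2 was −0.0047 and Gpt2 −0.0011; with voom Sucla2 was 0.10 and Me3 −0.0060.

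With each library left out in turn, sign changes gave ranges of −0.52 to 0.086 for Dld, −0.27 to 0.025 for Gpd2, −0.12 to 0.18 for Gpt2, −0.26 to 0.42 for Gpt, −0.074 to 0.20 for Idh3b, −0.12 to 0.13 for Idh3g, −0.25 to 0.29 for Mdh1, −0.11 to 0.28 for Mdh2, −0.10 to 0.22 for Me2, −0.053 to 0.17 for Me3, −0.46 to 0.071 for Sucla2 and −0.044 to 0.14 for Suclg1. For the log2 ratios they were −0.059 to 0.33 for Gpd2/Gpd1, −0.23 to 0.34 for Gpt2/Gpt, −0.20 to 0.19 for Idh2/Idh1 and −0.26 to 0.35 for Mdh2/Mdh1. For the relation to Ppargc1a, 1 member, and 2.41% of all tested genes, passed for r on log2(FPKM + 0.1), with 0 members and 0 genes for rho, and the members' median r was 0.21 without the 2 farthest libraries and 0.18 to 0.62 with each library left out. The SE of a member's log2 fold change was between 0.19 and 0.45, and the part of depth in it was not tested.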
